A study of Mus musculus with 12 samples.

Results

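The TNF superfamily ligands and receptors were taken as all genes whose symbol begins with Tnfsf or Tnfrsf, together with Tnf, Lta and Ltb, among the genes that have a probe set with a single gene symbol. This gave 32 of 19938 genes, 12 ligands and 20 receptors, each with its own probe set. Superfamily genes that go by other symbols, such as Fas and Cd40, are not members by this rule and are given apart. Expression was measured with Affymetrix arrays in livers from 12 male mice, 4 in each of 3 groups, with C57Bl/6 as the labelled background strain of all 12 (C57Bl6/J in the protocols). The first group was wild-type (WT) mice without treatment. The second was WT mice given lipopolysaccharide (LPS, a cell wall component of Gram-negative bacteria) at 1 µg/kg. The third was S534A mice given the same dose. These carry, in the germline and in homozygous form, an alanine in place of a serine of p65, which Rela encodes and which is a subunit of NF-kB. The knock-in came from PTL1 embryonic stem cells, its selection cassette was removed, and 5 backcrosses to C57Bl6/J preceded the breeding to homozygosity. For the mice's age and for how long LPS acted, the labels used here have no entry. No untreated S534A group is part of the comparisons, and what the genotype changes before LPS and what it changes in the response cannot be told apart. The untreated arrays have titles of another form than the LPS arrays, and if they were run apart, run and LPS cannot be told apart either. The labels do not say whether the livers came from separate cages, litters or days, so p-values rest on the spread among these livers alone.

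Ligands of the TNF superfamily are mostly made as trimeric proteins of the cell surface, and some are released by proteases. Their receptors fall into those with a death domain, which can start apoptosis, those that bind TRAF adaptors and signal to NF-kB, and decoys that bind ligand without signalling to death. In the liver, macrophages are a main source of TNF after LPS, and hepatocytes carry TNF receptor 1. NF-kB activity is known to protect hepatocytes from killing by TNF.

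Values are log2 RMA expression, in which a difference of 1 is a doubling. The probe sets read 3.43 to 14.48, and arrays of a group correlated at 0.983 to 0.996. Levels are compared between arrays for 1 gene, and genes are called dim where they read low on this scale. Changes are also set side by side between genes, for neighbouring genes within each array. Several arrays stood apart. In the untreated group the clock genes Arntl and Dbp split the arrays: Arntl read 9.03 and 9.08 on replicates 1 and 3 but 6.29 and 6.20 on replicates 2 and 4, and Dbp ran the other way (8.14 and 7.59 against 11.19 and 11.39). The mean of 8 exocrine pancreas genes read 8.67 on WT LPS replicate 2, 6.83 on WT LPS replicate 3 and 9.52 on S534A LPS replicate 3, against 5.79 to 6.25 on the other 9 arrays. WT LPS replicate 2 also read high for dim genes in general: it was the highest of its group for 63.9% of genes with a mean below 7. The hepatocyte marker mean, with Alb among its 7 genes, lay between 13.51 and 13.63 on every array, near the highest value of 14.48.

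LPS raised the death ligand gene Tnfsf10 and Tnf most, and with them both TNF receptors, the decoy receptor Tnfrsf23, and Tnfrsf14 and Tnfrsf21. In WT livers 12 of the 32 genes rose and 0 fell (limma, adjusted p under 0.05 by Benjamini-Hochberg across the 19938 genes), 3 of them by at least 2-fold. At an unadjusted p under 0.05, 16 members (50%) read higher and 0 lower, against 14.7% and 20.8% of all genes. At the adjusted threshold 9.34% of all genes were called higher and 15.6% lower, or 25% in either direction, so 37.5% of the members stands against 9.34%. The 4 LPS arrays lay above all 4 untreated ones in 11 members, where 9.78% of all genes were so placed. The median difference of the members was 0.20 and that of all genes 0.02. In S534A LPS livers 13 were higher and 0 lower than in the same untreated WT arrays, 5 by at least 2-fold, where 11% of all genes were called higher and 16% lower (26.9% in either direction). In 13 members the arrays did not overlap, being higher after LPS, against 13.8% of all genes. At an unadjusted p under 0.05, 15 members (46.9%) read higher and 0 lower, against 15.8% and 20.6% of all genes. The median difference was 0.17 for the members and 0.03 for all genes. This comparison, called that of S534A livers from here on, holds genotype and LPS together. A total of 11 genes were called in both comparisons, which share their untreated arrays. Fewer cells of a type and less RNA per cell cannot be told apart in whole liver, nor can more of either.

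**Figure D1:**
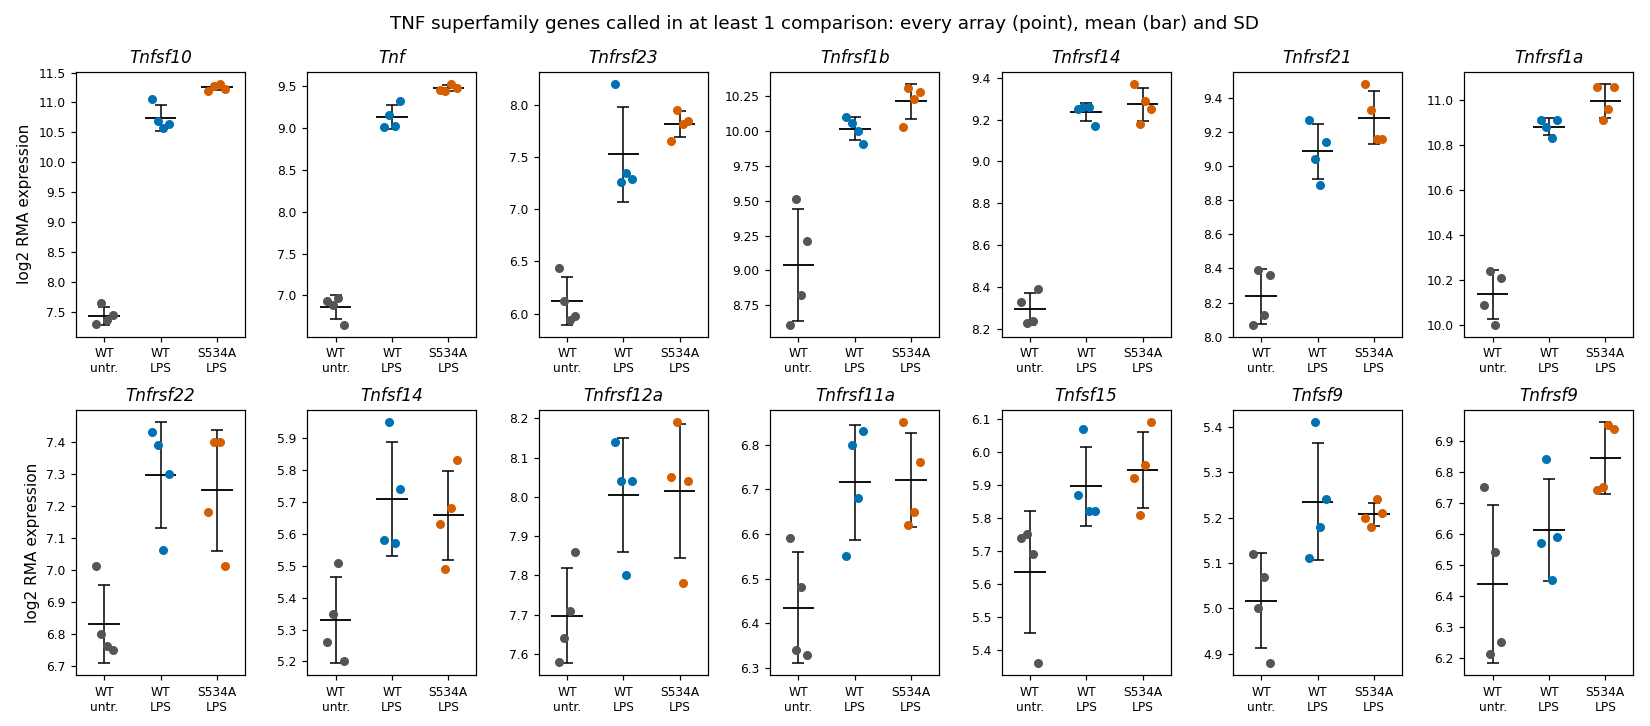
Log2 RMA expression (y axis, scale differs by panel) of the 14 genes called in at least 1 comparison, on every array, by group; points are arrays, horizontal bars group means and error bars the SD of 4 arrays. In the upper row every LPS array lies above every untreated array, and for Tnfsf10 and Tnf the S534A arrays also lie above the WT LPS arrays; in the lower row the groups lie closer and several overlap.

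Tnfsf10 encodes TRAIL, a ligand that can kill cells through a death receptor and that interferons induce in many cell types. It read 7.30, 7.65, 7.37 and 7.46 on the 4 untreated arrays, 11.05, 10.69, 10.57 and 10.64 on the WT LPS arrays, and 11.20, 11.28, 11.31 and 11.23 on the S534A LPS arrays. Every LPS array lay above every untreated one, and every S534A array above every WT LPS array. The group means were 7.45 ± 0.15 (SD, n = 4), 10.74 ± 0.21 and 11.25 ± 0.05. In WT mice LPS raised Tnfsf10 9.79-fold, a log2 difference of 3.29 ± 0.10 (SE; limma adjusted p = 1.19e-10). S534A LPS livers read 14.0-fold above untreated WT livers (3.81 ± 0.10; adjusted p = 2.49e-11).

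Tnf, the founding ligand, came next. It read 6.93, 6.89, 6.97 and 6.65 in untreated livers, 9.01, 9.16, 9.03 and 9.32 in WT LPS livers, and 9.46, 9.45, 9.53 and 9.48 in S534A LPS livers. The 3 groups did not overlap here either, and the S534A arrays lay between 9.45 and 9.53. LPS raised Tnf 4.82-fold in WT livers (2.27 ± 0.084, SE; adjusted p = 6.19e-10), and S534A LPS livers read 6.14-fold above untreated WT livers (2.62 ± 0.084; adjusted p = 1.18e-10).

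The promoter sequences of these genes are shown because several members moved together, and LPS is known to activate NF-kB and interferon regulatory factors (IRFs). They are the 250 bases before the transcription start in RefSeq, on build GRCm38.p6, read 5′ to 3′ on the gene's strand. Tnfsf10 (chr3:27316827-27317076, plus strand), Tnf (chr17:35202008-35202257, minus strand) and Tnfrsf23 (chr7:143685876-143686125, minus strand), the receptor with the largest difference, are shown with Tnfrsf14 (chr4:154928078-154928327, minus strand), which was added after its sequence was seen. Capitals mark every match to the 4 motifs searched on both strands: an NF-kB motif (GGG, any 3 bases, TTCC), an IRF core (AANNGAAA), an interferon-stimulated response element (ISRE, written GAAA, any 2 bases, GAAA, which contains the IRF core) and the STAT motif GAS (TTCNNNGAA).
Tnfsf10: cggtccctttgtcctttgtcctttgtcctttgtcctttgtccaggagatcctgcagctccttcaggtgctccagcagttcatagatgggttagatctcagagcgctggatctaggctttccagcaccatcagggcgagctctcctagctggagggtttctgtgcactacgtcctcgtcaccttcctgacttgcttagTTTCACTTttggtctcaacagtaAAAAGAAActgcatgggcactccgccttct
Tnfrsf14: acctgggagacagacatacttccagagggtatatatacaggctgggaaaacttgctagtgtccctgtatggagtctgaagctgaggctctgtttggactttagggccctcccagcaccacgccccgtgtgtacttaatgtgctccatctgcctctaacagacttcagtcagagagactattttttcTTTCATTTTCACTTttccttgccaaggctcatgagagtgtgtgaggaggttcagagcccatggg
Tnf: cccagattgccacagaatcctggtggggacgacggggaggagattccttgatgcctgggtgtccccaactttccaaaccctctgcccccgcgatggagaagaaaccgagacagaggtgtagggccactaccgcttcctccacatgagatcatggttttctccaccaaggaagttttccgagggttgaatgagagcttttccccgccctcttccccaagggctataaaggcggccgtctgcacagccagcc
Tnfrsf23: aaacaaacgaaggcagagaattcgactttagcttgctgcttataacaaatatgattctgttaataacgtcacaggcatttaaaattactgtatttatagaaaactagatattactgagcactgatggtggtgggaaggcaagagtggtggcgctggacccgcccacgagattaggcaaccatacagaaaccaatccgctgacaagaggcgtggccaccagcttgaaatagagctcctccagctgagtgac

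Tnfsf10 held the IRF core at bases -53 to -46 and -30 to -23 before the start. Tnfrsf14 held overlapping IRF cores at -64 to -57 and -58 to -51, with an ISRE at -64 to -55. In Tnf and Tnfrsf23 none of the 4 motifs was found, which says only that these letters are not in this window. A promoter was found in the table for 26 of the 32 members, 12 of them among the 14 called genes. The IRF core was in 11 of the 26 and in 6 of the 12, against 21.3% of 32851 promoters of the same length. The ISRE was in 4 of 26 members (Tnfrsf14, Tnfrsf17, Tnfrsf1b and Tnfsf13b), against 2.98% of promoters. The NF-kB motif was in 3 members (Ltb, Tnfrsf25 and Tnfrsf9), against 4.65%, and GAS in 7, against 7.02%. Among the 12 called genes the ISRE was in 2, the NF-kB motif in 1 and GAS in 3. A member was counted if any of its promoters matched, whereas the shares are per promoter. The motifs were chosen after these promoters were seen, so the counts are description only. A match is a description of letters and not a bound site.

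Of the other 10 ligands, Tnfsf14 and Tnfsf9 also passed in WT livers, both by small margins on dim probe sets. Tnfsf14 encodes LIGHT, which binds the receptor encoded by Tnfrsf14 and the lymphotoxin beta receptor. It read 5.26, 5.35, 5.51 and 5.20 untreated, 5.58, 5.95, 5.57 and 5.74 in WT LPS livers, and 5.63, 5.49, 5.68 and 5.83 in S534A LPS livers. All WT LPS arrays lay above all untreated ones, whereas S534A replicate 2 fell among the latter. The difference was 1.30-fold in WT livers (0.38 ± 0.10, SE; adjusted p = 0.0159) and 1.26-fold in S534A against untreated WT livers (0.33 ± 0.10; adjusted p = 0.0296). Without the 3 arrays with pancreas transcripts the WT difference was 0.33 and did not pass (adjusted p = 0.0916). The S534A call was lost without any one of untreated replicates 1, 2 and 4 and S534A replicates 1, 3 and 4 (adjusted p 0.0539 to 0.0949).

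Tnfsf9 encodes the ligand of the T cell co-stimulator 4-1BB. It read 5.12, 5.00, 5.07 and 4.88 untreated, 5.11, 5.41, 5.18 and 5.24 in WT LPS livers, and 5.20, 5.18, 5.24 and 5.21 in S534A LPS livers. WT LPS replicate 1 lay below untreated replicate 1, and WT LPS replicate 2, which reads high for dim genes, was the highest of all. The difference was 1.16-fold in WT livers (0.22 ± 0.073, SE; adjusted p = 0.0453), and leaving out any one of 10 of the 12 arrays ended the call (adjusted p up to 0.122), all but untreated replicate 1 and WT LPS replicate 1. In S534A livers it did not pass (0.19 ± 0.073; adjusted p = 0.0731), although all 4 arrays lay above the untreated ones, and it passed there without WT LPS replicate 2 (adjusted p = 0.0316).

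Tnfsf15 encodes TL1A, the ligand of death receptor 3. It read 5.74, 5.75, 5.69 and 5.36 untreated, 5.87, 6.07, 5.82 and 5.82 in WT LPS livers, and 5.92, 5.81, 5.96 and 6.09 in S534A LPS livers, so both LPS groups lay above all untreated arrays. It passed in S534A livers (1.24-fold; 0.31 ± 0.10, SE; adjusted p = 0.0325) but not in WT livers (0.26 ± 0.10; adjusted p = 0.0735). Between the LPS groups the difference was 0.051 (95% interval -0.16 to 0.26). The S534A call was lost without any one of untreated replicate 4 and S534A replicates 1, 3 and 4 (adjusted p 0.0598 to 0.1) and without the 3 arrays with pancreas transcripts (0.0699), where the difference was 0.30.

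The remaining ligands did not pass in any comparison. Lta and Ltb encode the lymphotoxins and flank Tnf on the chromosome, with no other protein-coding gene between them in the RefSeq gene table. Ltb read 6.54 ± 0.09 (SD, n = 4) untreated, 6.74 ± 0.18 in WT LPS and 6.77 ± 0.09 in S534A LPS livers, a difference of 0.20 in WT (adjusted p = 0.13) and 0.23 in S534A livers (0.0734). It passed in WT livers without WT LPS replicate 1 (0.26; adjusted p = 0.0491) and in S534A livers without WT LPS replicate 2 (0.23; 0.0248). Lta read 5.30 ± 0.20, 5.58 ± 0.40 and 5.46 ± 0.11, a WT difference of 0.28 (adjusted p = 0.243), with its highest value, 6.12, on WT LPS replicate 2. Tnf rose by 1.99 more than Lta and by 2.07 more than Ltb in WT livers, taken within each array. In S534A livers the excess was 2.46 and 2.38. In each case an exact two-sided permutation test gave p = 0.0286, the smallest that 4 arrays against 4 allow. Adjusted over the 20 tests on 10 neighbouring pairs of superfamily genes it was 0.0572, which does not pass. Every test at the smallest p has this adjusted value. Whether such a pair passed thus hung on the other pairs and not on the size of its own difference.

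The T cell co-stimulatory ligand genes Tnfsf4 (OX40 ligand), Tnfsf8 (CD30 ligand) and Tnfsf18 (GITR ligand) read between 4.75 and 5.35 on every array, low on the scale of these arrays. Tnfsf4 differed by 0.21 in WT livers (adjusted p = 0.106) and passed without WT LPS replicate 1 (0.28; adjusted p = 0.0242). Tnfsf8 lay higher on all 8 LPS arrays than on the untreated ones, by 0.072 in WT and 0.080 in S534A livers (adjusted p = 0.337 and 0.281). Tnfsf11, which encodes RANK ligand, varied from 7.46 to 8.15 among untreated and from 7.58 to 8.5 among WT LPS livers, and differed by 0.10 (adjusted p = 0.723). Tnfsf13b, which encodes the B cell survival factor BAFF, read 5.59 ± 0.08 untreated, 5.55 ± 0.11 in WT LPS and 5.53 ± 0.07 in S534A LPS livers (adjusted p = 0.689 and 0.538).

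**Figure D2:**
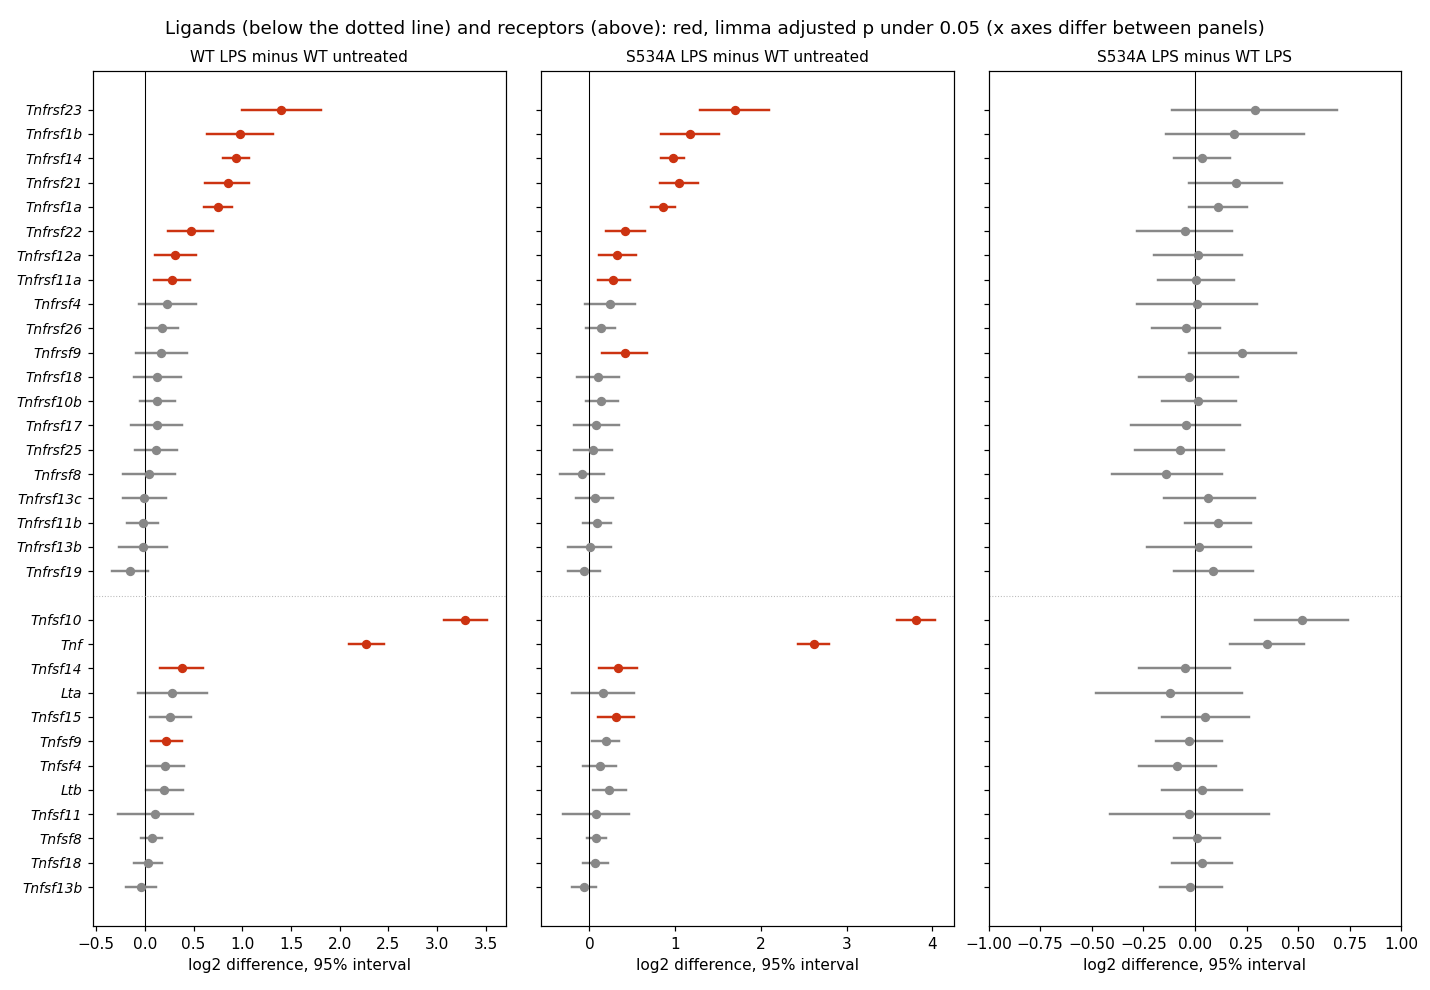
Log2 differences (x axis) with limma's 95% intervals for all 32 genes (y axis, ligands below and receptors above the dotted line) in the 3 comparisons; red marks an adjusted p under 0.05. Tnfsf10 and Tnf stand apart at 3.29 and 2.27 in WT livers, 5 receptors lie between 0.75 and 1.40, and no gene is red for S534A LPS against WT LPS.

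Both receptors of TNF rose. Tnfrsf1a encodes TNF receptor 1, which carries the death domain and through which TNF signals to NF-kB and to cell death. It read 10.09, 10.24, 10.00 and 10.21 untreated, 10.91, 10.88, 10.83 and 10.91 in WT LPS livers, and 11.06, 10.91, 10.96 and 11.06 in S534A LPS livers. All LPS arrays lay above all untreated ones, and the LPS groups met at 10.91. The rise was 1.68-fold in WT livers (0.75 ± 0.066, SE; adjusted p = 3.24e-06) and 1.81-fold in S534A livers (0.86 ± 0.066; adjusted p = 6.6e-07).

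Tnfrsf1b encodes TNF receptor 2, which lacks a death domain. It read 8.61, 9.51, 8.82 and 9.21 untreated, 10.10, 10.06, 10.00 and 9.91 in WT LPS livers, and 10.03, 10.31, 10.23 and 10.28 in S534A LPS livers. The untreated arrays split as Arntl did, with replicates 1 and 3 low and replicates 2 and 4 high, and their SD of 0.40 was the largest of the 3 groups (0.09 and 0.13 after LPS). The rise was 1.97-fold in WT livers (0.98 ± 0.16, SE; adjusted p = 0.000484) and 2.25-fold in S534A livers (1.17 ± 0.16; adjusted p = 9.19e-05). Against untreated replicates 2 and 4 alone the WT difference was 0.66 and against replicates 1 and 3 alone 1.30, with the call kept in both (adjusted p = 0.00109 and 3.19e-06). The corresponding S534A differences were 0.85 and 1.5. Whether the clock phase plays a part in the level of Tnfrsf1b was not tested.

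Receptors of TRAIL did not move together. Tnfrsf10b, which encodes the mouse death receptor for TRAIL, read 5.62 ± 0.14 (SD) untreated, 5.74 ± 0.11 in WT LPS and 5.76 ± 0.10 in S534A LPS livers. Its difference was 0.13 in WT (95% interval -0.05 to 0.31; adjusted p = 0.303) and 0.14 in S534A livers (-0.04 to 0.33; adjusted p = 0.241). The decoy receptor gene Tnfrsf23 read 6.44, 6.12, 5.94 and 5.98 untreated, 8.20, 7.26, 7.35 and 7.29 in WT LPS livers, and 7.65, 7.95, 7.82 and 7.84 in S534A LPS livers. All LPS arrays were above all untreated ones, and WT LPS replicate 1 stood above the other 3 of its group, which read at most 7.35. Tnfrsf23 was 2.65-fold higher in WT livers (1.40 ± 0.19, SE; adjusted p = 0.000117) and 3.24-fold higher in S534A livers (1.70 ± 0.19; adjusted p = 1.84e-05). Without WT LPS replicate 1 the WT difference was 1.18.

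Tnfrsf22, the other decoy, read 7.01, 6.80, 6.76 and 6.75 untreated, 7.43, 7.39, 7.06 and 7.30 in WT LPS livers, and 7.18, 7.40, 7.40 and 7.01 in S534A LPS livers. The difference was 1.38-fold in WT (0.47 ± 0.11, SE; adjusted p = 0.00595) and 1.34-fold in S534A livers (0.42 ± 0.11; adjusted p = 0.0101). All LPS arrays lay above all untreated ones, but S534A replicate 4 and untreated replicate 1 differ only past the digits printed. Against untreated replicates 1 and 3 alone neither passed (adjusted p = 0.0542 and 0.0834). Tnfrsf26, the third gene of this cluster, did not pass (0.18 in WT and 0.13 in S534A livers; adjusted p = 0.122 and 0.246). These 3 genes are neighbours and close relatives, and probes shared between them were not separated. Within arrays Tnfrsf23 rose by 0.94 more than Tnfrsf22 in WT and by 1.28 more in S534A livers (exact permutation p = 0.0286 each, adjusted p = 0.0572). Tnfrsf11b, which encodes osteoprotegerin, a soluble decoy for RANK ligand that also binds TRAIL, read 7.81 ± 0.15 untreated, 7.79 ± 0.07 in WT LPS and 7.90 ± 0.03 in S534A LPS livers (WT difference -0.020, 95% interval -0.18 to 0.14).

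Tnfrsf14 encodes HVEM, the receptor of LIGHT. It read 8.33, 8.23, 8.24 and 8.39 untreated, 9.25, 9.26, 9.26 and 9.17 in WT LPS livers, and 9.37, 9.18, 9.29 and 9.25 in S534A LPS livers. The rise was 1.91-fold in WT livers (0.94 ± 0.061, SE; adjusted p = 1.75e-07) and 1.96-fold in S534A livers (0.97 ± 0.061; adjusted p = 8.88e-08), and the nearest LPS and untreated values were 9.17 and 8.39. Tnfrsf21 encodes death receptor 6, a death domain receptor without a ligand in this superfamily. It read 8.07, 8.39, 8.13 and 8.36 untreated, 9.27, 9.04, 8.89 and 9.14 in WT LPS livers, and 9.48, 9.33, 9.16 and 9.16 in S534A LPS livers. All LPS arrays exceeded all untreated ones, with a difference of 1.80-fold in WT (0.85 ± 0.10, SE; adjusted p = 6.13e-05) and 2.06-fold in S534A livers (1.04 ± 0.10; adjusted p = 7.67e-06).

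**Figure D3:**
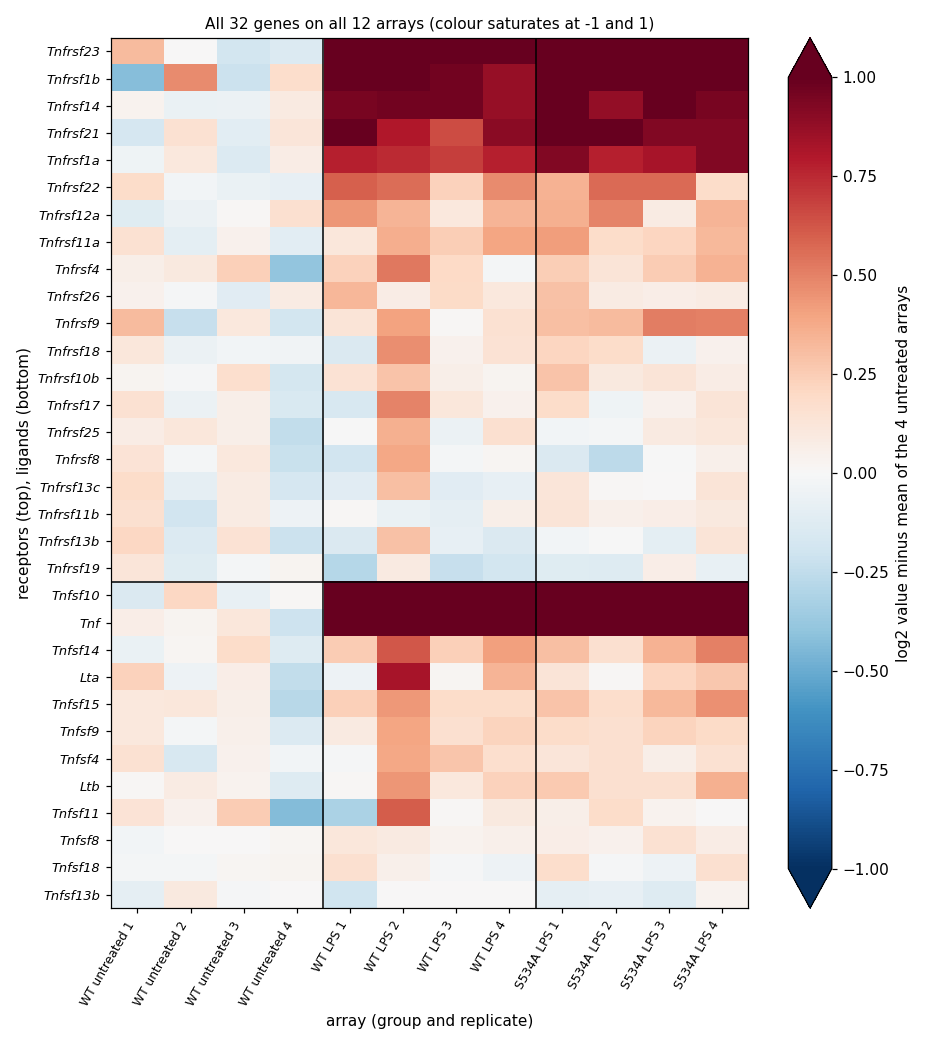
Log2 values of all 32 genes (rows) on all 12 arrays (columns), each minus the mean of the 4 untreated arrays; colour runs from -1 to 1 and saturates beyond. The top receptors and the top ligands are red on all 8 LPS arrays, and in the middle of each block WT LPS replicate 2 is redder than the other arrays of its group, being the highest of its group for 13 of the 18 genes called in no comparison.

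Smaller rises were seen in 3 receptors. Tnfrsf12a encodes Fn14, the receptor of TWEAK that is known in liver regeneration, and read 7.58, 7.64, 7.71 and 7.86 untreated, 8.14, 8.04, 7.80 and 8.04 in WT LPS livers, and 8.05, 8.19, 7.78 and 8.04 in S534A LPS livers. In both LPS groups replicate 3 lay within the untreated range, and both of these arrays carried pancreas transcripts. It passed at 1.24-fold in WT (0.31 ± 0.10, SE; adjusted p = 0.0346) and 1.25-fold in S534A livers (0.32 ± 0.10; adjusted p = 0.0266). With each array centred on its median the differences were 0.29 and 0.30, and neither passed (adjusted p = 0.0623 and 0.0536). The WT call was lost when any one of 6 arrays was left out, untreated replicates 1, 2 or 3 or WT LPS replicate 1, 2 or 4 (adjusted p 0.0605 to 0.088), and the S534A call without untreated replicates 1 or 2 or S534A replicates 1, 2 or 4 (0.0641 to 0.0873).

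Tnfrsf11a encodes RANK, the receptor of RANK ligand. It read 6.59, 6.34, 6.48 and 6.33 untreated, 6.55, 6.80, 6.68 and 6.83 in WT LPS livers, and 6.85, 6.62, 6.65 and 6.76 in S534A LPS livers. WT LPS replicate 1 lay below untreated replicate 1, and the S534A arrays lay above all untreated ones. The rise was 1.21-fold in WT (0.28 ± 0.085, SE; adjusted p = 0.0303) and 1.22-fold in S534A livers (0.28 ± 0.085; adjusted p = 0.025). The WT call was lost without untreated replicates 2 or 4 or WT LPS replicates 2, 3 or 4 (adjusted p 0.0514 to 0.0916) and without the 3 arrays with pancreas transcripts (0.176), where the difference was 0.25. The S534A call was lost without untreated replicates 2 or 4 or S534A replicates 1 or 4 (0.0661 to 0.0806).

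Tnfrsf9 encodes 4-1BB itself. It read 6.75, 6.21, 6.54 and 6.25 untreated, 6.57, 6.84, 6.45 and 6.59 in WT LPS livers, and 6.74, 6.75, 6.95 and 6.94 in S534A LPS livers. S534A replicate 1 lay just below untreated replicate 1, and the WT LPS arrays overlapped with both groups. It passed in S534A livers alone (1.33-fold; 0.41 ± 0.12, SE; adjusted p = 0.0235), not in WT livers (0.17 ± 0.12; adjusted p = 0.334), but the difference between the LPS groups did not pass either (0.23 ± 0.12; adjusted p = 0.951). Untreated replicates 1 and 3 were again apart from 2 and 4, and against replicates 1 and 3 alone the S534A difference was 0.20 (adjusted p = 0.278). Against replicates 2 and 4 alone Tnfrsf9 passed in WT livers too (0.38; adjusted p = 0.0252). The call was lost without untreated replicates 2 or 4 or S534A replicates 3 or 4 (adjusted p 0.0667 to 0.072) and without the 3 arrays with pancreas transcripts (0.0606), where the difference was 0.37.

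The 11 receptors called in no comparison include those of lymphocytes. The genes of the receptors of BAFF and APRIL on B cells, Tnfrsf13b (TACI), Tnfrsf13c (BAFF receptor) and Tnfrsf17 (BCMA), differed in WT livers by -0.020, -0.0034 and 0.12 (adjusted p = 0.92, 0.985 and 0.495). The T cell co-stimulatory receptor genes Tnfrsf4 (OX40), Tnfrsf8 (CD30), Tnfrsf18 (GITR) and Tnfrsf25 (death receptor 3) differed by 0.23, 0.046, 0.13 and 0.11 (adjusted p = 0.238, 0.816, 0.444 and 0.456). On WT LPS replicate 2 each of these 7 genes had the highest value of its group. Tnfrsf19, which encodes TROY, read 6.98 ± 0.10 (SD) untreated, 6.83 ± 0.16 in WT LPS and 6.92 ± 0.09 in S534A LPS livers (WT difference -0.15; adjusted p = 0.228). Without WT LPS replicate 2 it was lower after LPS in WT livers (-0.23; adjusted p = 0.0342). Over all 18 uncalled members the differences ran from -0.15 to 0.28 in WT and from -0.09 to 0.24 in S534A livers, and 9 of them had a mean below 6.

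Ligands and receptors were also set side by side. Of 24 known pairs with both genes measured, including pairs of Fas, Cd40 and Cd27, both partners passed as higher in WT livers in 5: Tnf with either TNF receptor, Tnfsf10 with Tnfrsf22 and with Tnfrsf23, and Tnfsf14 with Tnfrsf14. In 4 pairs the ligand alone passed, in 5 the receptor alone, and in 10 neither. A gene can enter several pairs, as Tnf and Tnfsf10 do, and no share was computed for these counts to stand against. They are for WT livers. In S534A livers Tnfrsf9 passed and its ligand gene Tnfsf9 did not, and Tnfsf15 passed without its receptor gene Tnfrsf25. Pairs with the receptor alone in WT livers were those of Lta with either TNF receptor, Tnfsf11 with Tnfrsf11a, Cd40lg with Cd40, and Fasl with Fas.

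S534A and WT livers after LPS were compared for the effect of the p65 substitution. Rela itself read 11.11 ± 0.08 in WT and 11.20 ± 0.06 in S534A LPS livers (SD, n = 4), and its probe set does not see the substitution. Of the 32 members 0 were called higher and 0 lower (limma, adjusted p under 0.05), against 0.166% and 0.00502% of all genes, and at an unadjusted p under 0.05 there were 2 (6.25%) and 0, near the 4.21% and 1.54% of all genes. These were Tnfsf10 and Tnf, the ligands that LPS raised most. Tnfsf10 was 1.43-fold higher in S534A livers (0.52 ± 0.10, SE; 95% interval 0.29 to 0.74; adjusted p = 0.0835). Tnf was 1.27-fold higher (0.35 ± 0.084; 0.17 to 0.53; adjusted p = 0.179). For these 2 members and no other, the S534A arrays did not overlap the WT LPS arrays, as was so for 3.25% of all genes on the higher side and 1.18% on the lower.

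WT LPS replicate 1 had the highest Tnfsf10 of its group, 11.05, and without it Tnfsf10 passed (0.62; adjusted p = 0.0072). With array weights, which give less weight to arrays that depart from their group, both passed (Tnfsf10 0.59, adjusted p = 0.0027; Tnf 0.36, adjusted p = 0.0162). Over all alternatives the difference of Tnfsf10 ran from 0.39 to 0.62 with an adjusted p of 0.0027 to 0.881, and that of Tnf from 0.30 to 0.41 with 0.0162 to 0.969. Differences of the other 30 members ran from -0.14 to 0.29, with Tnfrsf23 (0.29, 95% interval -0.11 to 0.69) and Tnfrsf9 at the top. Without WT LPS replicate 1, whose Tnfrsf23 stood high at 8.20, the difference of Tnfrsf23 was 0.52 and did not pass (adjusted p = 0.0731). The 95% interval, which is not adjusted for the number of genes, reached a median of 0.22 to either side of the difference. A call needed more than that: Tnfsf10 at 0.52 (limma adjusted p = 0.0835) and Tnf at 0.35 (0.179) did not pass. Differences of such sizes can therefore be missed with 4 arrays a group. The median SD of the members was 0.09 in S534A LPS, 0.16 in WT LPS and 0.14 in untreated livers, and over all genes 0.08, 0.14 and 0.13.

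Superfamily genes under other symbols included larger rises than most members. Of 12 such genes 3 rose in WT livers and 4 were higher in S534A than in untreated livers (the fourth being Eda2r, 0.24, adjusted p = 0.0425), with 0 lower in either. Of all genes 9.34% were called higher and 15.6% lower in WT livers, and 11% and 16% in S534A livers. Fas, the death receptor gene, rose from 7.30 ± 0.25 to 9.44 ± 0.16 in WT LPS livers (2.14 ± 0.11, SE; adjusted p = 1.91e-08) and read 9.54 ± 0.02 in S534A LPS livers. Cd40, the co-stimulatory receptor gene, rose from 7.12 ± 0.05 to 8.76 ± 0.20 (1.64 ± 0.09; adjusted p = 3.2e-08) and read 9.29 ± 0.10 in S534A livers, the single gene of this list that passed between the LPS groups (0.53 ± 0.09; adjusted p = 0.0429). Of all genes 0.166% were called higher between those groups. Ngfr, the p75 neurotrophin receptor gene, rose by 0.58 ± 0.086. Ltbr, the lymphotoxin beta receptor gene, differed by -0.19 (adjusted p = 0.0862), and the ligand genes Fasl and Cd40lg by 0.17 and 0.077 (adjusted p = 0.0845 and 0.64).

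The counts of the lists that follow stand against 9.34% of all genes called higher and 15.6% called lower in WT livers, and 11% and 16% in S534A livers. Downstream of the receptors, 6 of 13 measured adaptor genes rose and 2 fell in WT livers, and 7 were higher and 2 lower in S534A LPS than in untreated livers. Birc2 and Birc3, which encode the ubiquitin ligases cIAP1 and cIAP2 of the receptor complexes, rose by 1.46 ± 0.11 (SE) and 1.17 ± 0.083 (adjusted p = 6.47e-07 and 4.32e-07). Traf5, a TRAF adaptor gene, rose by 0.49 ± 0.073. Tradd, which encodes the adaptor that binds the death domain of TNF receptor 1, fell by 0.60 on the log2 scale (adjusted p = 0.000141), and Traf4, another TRAF gene, fell by 0.79 (0.000651); it is named after its value was seen, as the other gene that fell. The list's median was 0.28 in WT livers, against 0.02 over all genes. Of 12 genes of linear ubiquitin and its control at TNF receptor 1, 7 rose in WT and 8 in S534A livers and 0 fell in either (median 0.26 and 0.34). Rnf31, the catalytic subunit gene of the linear ubiquitin ligase, rose by 1.61 ± 0.11 in WT livers. Tnfaip3, the gene of the ubiquitin-editing protein A20, also rose by 1.61 ± 0.11, and Tnip1, which encodes a partner of A20, by 1.47 ± 0.11. Tnfaip3 read 8.40 ± 0.12 (SD) in WT and 8.94 ± 0.22 in S534A LPS livers and did not pass between them (0.54 ± 0.11, SE; adjusted p = 0.0787).

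Of 9 genes that shed or process ligands and receptors, 5 rose and 3 fell in WT livers, and 4 rose and 2 fell in S534A livers. Rhbdf2, which encodes iRhom2, a protein that brings the TNF-shedding protease to the cell surface, rose by 0.92 ± 0.084 in WT livers (adjusted p = 4.97e-06). Adam17, the gene of that protease, rose by 0.49 ± 0.095 (adjusted p = 0.00195). The intramembrane protease genes Sppl2a and Sppl2b parted: the first rose by 0.46 ± 0.075 and the second fell by 0.49 (adjusted p = 0.000623 and 0.000206). Of 10 regulators of Tnf mRNA 3 rose in WT livers and 0 fell, where 25% of all genes were called in either direction, namely Elavl1 (0.45 ± 0.089), Mapkapk2 (0.40 ± 0.080) and Zc3h12a (0.44 ± 0.10). In S534A livers 3 rose and 1, Zfp36l2, fell (by 0.77; adjusted p = 0.00063). A mixed list held 10 genes with TNF in a present or former name, among them the Tnfaip genes and their relatives. Of these 4 rose and 1 fell in WT livers and 5 rose and 1 fell in S534A livers. Whether TNF induced any of them here was not tested. Steap4, a metalloreductase gene, rose by 2.91 ± 0.20 and Litaf by 1.24 ± 0.12, while Tnfaip8l1 fell by 0.51. Of the 54 measured genes of these 5 lists 0 passed between the LPS groups by limma, and at an unadjusted p under 0.05 there were 7 higher and 1 lower in S534A livers, where 4.21% and 1.54% of all genes were.

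Markers of several cell types also differed after LPS, some lists mostly higher and others mostly lower. Of 7 hepatocyte markers 1 rose in WT livers (Hnf4a, 0.38; limma adjusted p = 0.00166) and 1 fell (Ttr, -0.20; 0.0121). In S534A livers 0 rose and 1 fell (Ttr, -0.16; limma adjusted p = 0.0305). Of 12 neutrophil markers 10 rose in each LPS group, all but Camp and Ltf. The mean of the list read 5.74 to 6.00 on untreated, 7.15 to 7.40 on WT LPS and 7.5 to 7.78 on S534A LPS arrays, without overlap. Lcn2, which enters that mean, had the largest difference of the list in WT livers (4.11 ± 0.31, SE) and read 8.25 to 10.38 untreated. Whether its rise came from neutrophils was not tested. S100a9 and Retnlg passed between the LPS groups. Of 5 monocyte markers 4 rose in each LPS group, and the mean read 7.24 to 7.47, 8.11 to 8.59 and 8.40 to 8.52. Of 10 Kupffer cell markers 1 rose and 4 fell in WT livers (list mean 9.14 to 9.56 untreated, 8.68 to 9.32 in WT LPS and 9.0 to 9.21 in S534A LPS livers), and 1 and 5 in S534A livers. Of 7 NK cell markers 2 rose in each LPS group (list mean 5.05 to 5.16, 5.25 to 5.31 and 5.28 to 5.37). Of 8 sinusoidal endothelial markers 1 rose and 4 fell in WT livers (9.48 to 9.69 against 8.85 to 9.30), and of 8 stellate cell markers 0 rose and 4 fell (8.67 to 8.72 against 8.21 to 8.36). Of 4 platelet markers 1 rose, of 6 dendritic cell markers 1 fell, and of 4 cholangiocyte markers 0 passed in WT livers. In S534A livers 1 endothelial marker was higher and 6 lower, and 0 stellate cell markers were higher and 4 lower. There 3 platelet markers and 1 cholangiocyte marker were higher, and 1 dendritic cell marker was lower. The T cell mean stayed between 5.85 and 6.12 on all arrays. Of 8 T cell markers 0 were called in WT livers. In S534A livers Cd3d was higher (0.25; limma adjusted p = 0.0415) and Cd4 lower (-0.31; 0.0364). Cd3e read 7.01 ± 0.07 untreated, 7.05 ± 0.13 in WT LPS and 7.09 ± 0.13 in S534A LPS livers. The B cell mean read 6.14 to 6.21 untreated, 5.88 to 6.05 in WT LPS and 5.93 to 6.16 in S534A LPS livers. Of 6 B cell markers 0 rose and 1 fell in each LPS group. This was Cd79b (-0.55 in WT and -0.40 in S534A livers; limma adjusted p = 0.00221 and 0.0145).

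When the mean of the neutrophil markers, Lcn2 included, was added to the fit as a covariate, 0 of the 32 members were called by limma in any comparison. Of all 19938 genes 17 and 4 were then called against untreated livers in WT and S534A livers and 0 between the LPS groups. At an unadjusted p under 0.05, 3 of the 32 members were higher and 1 lower in each LPS group against untreated livers. Between the LPS groups 3 members were higher and 0 lower. The share of all genes at that unadjusted threshold was not computed with the covariate, so these counts have nothing to stand against. That mean does not overlap between the groups, and with it the SE of the WT difference of Tnf rose from 0.084 to 0.531, while the difference itself was 2.20. That of Tnfsf10 was 3.56 and that of Tnfrsf23 -0.040. The marker level and the treatment cannot be told apart in these fits, and the part of neutrophils and monocytes in the rises was not tested otherwise. Between the LPS groups the differences with the covariate were 0.58 for Tnfsf10 and 0.33 for Tnf (adjusted p = 0.787 and 0.969).

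**Figure D4:**
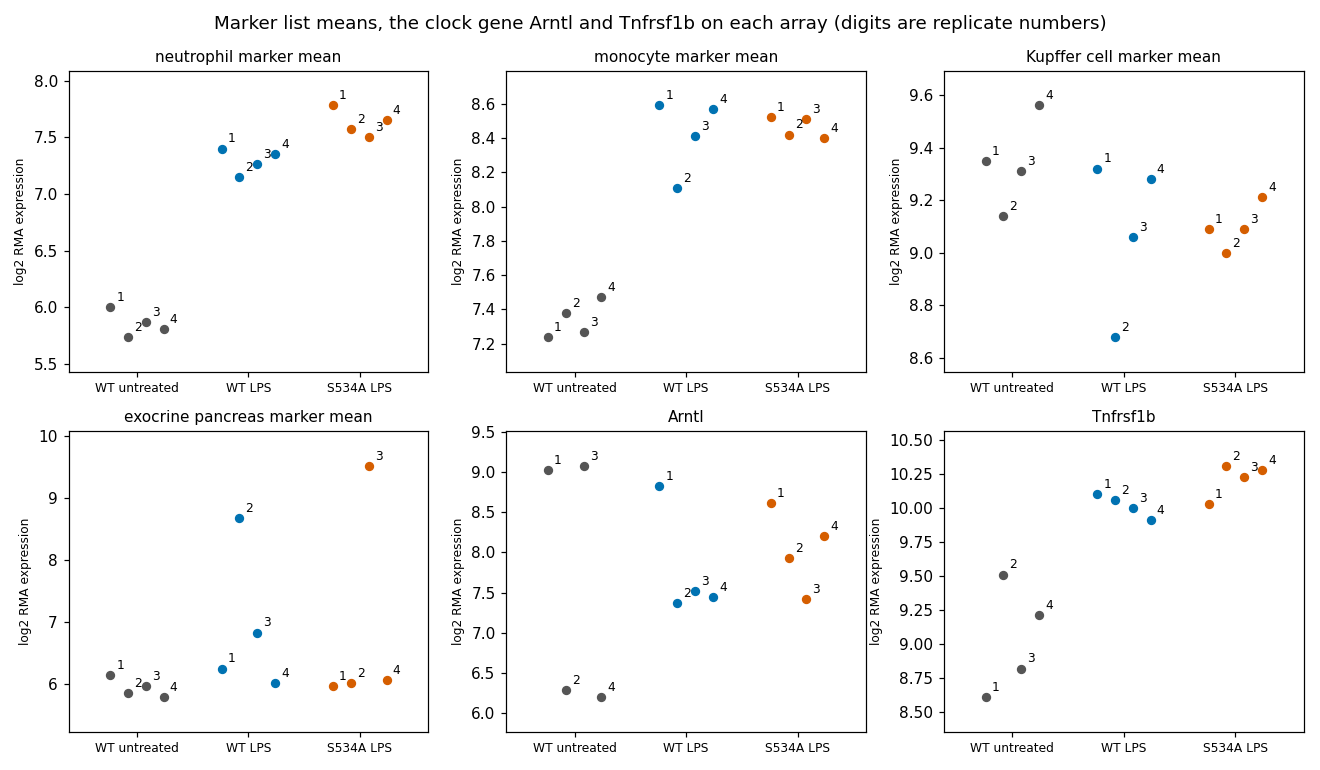
Mean log2 RMA expression (y axes) of 4 marker lists, and the values of Arntl and Tnfrsf1b, on each array by group; digits are replicate numbers. The neutrophil mean separates all 3 groups, the pancreas mean is high on S534A LPS replicate 3 and on replicates 2 and 3 of WT LPS, and Tnfrsf1b is lower on the untreated replicates 1 and 3, which have high Arntl.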

How the data were processed

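The deposited table holds log2 values. RMA is the method named in the submitters' processing notes, with no version, and a genome build is not given in the sources used. RMA as a rule corrects background, normalises by quantiles and summarises each probe set; here the medians of the arrays ran from 6.15 to 6.32. Of 35556 probe sets, 21789 carried 1 gene symbol, 1621 several and 12146 none; only the first kind was used. Where a gene had several probe sets (999 genes, none of them members) the one with the highest mean over the 12 arrays was taken, which left 19938 genes. The annotation is GEO's for the platform, and all 32 members matched the GRCm38.p6 RefSeq table by Entrez identifier.

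The 3 comparisons came from 1 limma fit (version 3.58.1, lmFit and eBayes, R 4.3.3) of the 12 arrays; the residual degrees of freedom were 9 and the prior ones 3.54. Tests were two-sided, with Benjamini-Hochberg adjustment over all 19938 genes and a threshold of 0.05. A general shift of expression cannot be seen after such normalisation. On simulated data with 200 changed genes among 19938, 72% of changes of 0.5 were recovered for S534A LPS against WT LPS. The share was 84% for changes of 0.7 and 98% for changes of 1, with 7 false calls. On the measured arrays 34 genes were called in that comparison, and Tnfsf10 at 0.52 did not pass (limma adjusted p = 0.0835). The simulation gave each gene the same SD in all groups, whereas the measured median SD over all genes was 0.08 in S534A LPS and 0.14 in WT LPS livers. Whether the recovered shares hold for the measured arrays was not tested.

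The members, gene lists, marker lists and alternatives were chosen with earlier results of these data known, and the motifs after the promoters were seen. All members are accounted for, and those called in any comparison are given on every array. Of each pathway list the 2 to 4 genes with the smallest p are named, with partners of called members; Traf4 was added after its value was seen. Promoters were to be shown for Tnf and for the ligand and receptor with the largest difference; Tnfrsf14 was added after its sequence was seen. Alternatives were each array left out, a threshold of 0.01, a filter on genes with a mean under 6, the average over probe sets of 1 gene, eBayes with a trend and robustly, repeated quantile normalisation, median centring, only the 2 groups compared, a replicate block, array weights, the fit without 3 arrays with pancreas transcripts, and the neutrophil marker mean as covariate. Fits without either pair of untreated arrays split by Arntl were added after seeing the data.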

Additional observations from a re-analysis of the deposited data

Results flagged for a closer look

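Dixon's test at the 95% level was applied to the 32 members in each of the 3 groups, 96 groups in all. It marked 8 arrays as far from the other 3 of their group, where chance marks about 5% of groups. On WT LPS replicate 1, Tnfrsf23 was high at 8.20 and Tnfsf13b low at 5.39. On WT LPS replicate 2, the array with the highest values for dim genes, the B cell receptor genes Tnfrsf13b and Tnfrsf13c were high at 6.38 and 7.72. Tnfrsf14 was low at 9.17 on WT LPS replicate 4, still far above the untreated arrays. On untreated replicate 4, Tnfrsf25 and Tnfsf15 were low at 5.71 and 5.36. Tnfrsf26 was high at 5.50 on S534A LPS replicate 1.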

How the results depend on the processing

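The calls of Tnfsf10, Tnf, Tnfrsf1a, Tnfrsf1b, Tnfrsf14, Tnfrsf21 and Tnfrsf23 against untreated livers held under all 24 alternatives other than the neutrophil covariate, in both LPS groups. With that covariate 0 members were called higher in either comparison, in place of 12 and 13; of all genes 17 and 4 were called, in place of 4983 and 5369. The differences turned to -0.377 and -0.523 (WT and S534A) for Tnfrsf11a, -0.000466 and -0.0611 for Tnfrsf12a and -0.0396 and -0.086 for Tnfrsf23, none of them called. At a threshold of 0.01, 7 members were called in S534A livers, and without the 2 untreated arrays with low Arntl, 8. Leaving out single arrays gave 9 to 13 members higher and 0 to 1 lower in WT livers, 8 to 15 higher in S534A livers (8 without S534A replicate 4), and 0 to 1 higher between the LPS groups. Array weights called 1 member, Tnfrsf19, lower in WT livers and 2 higher between the LPS groups. Against untreated replicates 1 and 3 alone, Tnfsf14, Tnfrsf11a and Tnfrsf22 were called in neither LPS group, nor Tnfsf15 and Tnfrsf9 in S534A livers or Tnfsf9 in WT livers; against replicates 2 and 4 alone Tnfrsf12a was called in neither. These 2 alternatives were chosen after seeing the data. With a replicate block 10 members were called in WT livers, 9 in S534A livers and 0 between the LPS groups. Arrays of the same number did not deviate together from their group means (correlations -0.27 to 0.21), so the numbers were not taken to pair samples. For changes of these counts other than by a stricter threshold or fewer arrays, the cause was not tested. The number of arrays limits the precision, and of the 32 members 12 had a mean below 6, where RMA values compress differences.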

Other observations

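A single probe set carried several symbols with members' names among them: Tnfsfm13, Tnfsf13 and Tnfsf12, which encode the neighbouring ligands APRIL and TWEAK and a fusion transcript of them. These genes had no probe set of their own and are in no count above. The probe set read 7.78, 7.77, 7.73 and 7.90 untreated, 7.52, 7.55, 7.42 and 7.29 in WT LPS livers, and 7.45, 7.33, 7.48 and 7.39 in S534A LPS livers. All 8 LPS arrays lay below all untreated ones, by 0.35 in WT (7.45 ± 0.12 against 7.79 ± 0.07, SD, n = 4; exact two-sided permutation p = 0.0286) and by 0.38 in S534A livers (7.41 ± 0.07; exact p = 0.0286), the smallest p that 4 against 4 arrays can give. The probe set was chosen after its values were seen, and its p-values are not adjusted. Of all single-symbol genes 14.9% in WT and 17.5% in S534A livers also lay below the untreated arrays without overlap. The receptor gene of TWEAK, Tnfrsf12a, read higher after LPS in the same livers, and those of APRIL, Tnfrsf13b and Tnfrsf17, did not pass.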
